A study of Mus musculus with 6 samples.

Results

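The genes described here are 10 genes of heart muscle, Actc1, Myh6, Myh7, Myl7, Myl4, Tnnt2, Tnni3, Ryr2, Nppa and Sln, chosen by symbol for the cardiac sarcomere and the atrium. All 10 were found among the 18238 genes of the deposited tables, and all 10 passed the filter on low counts. RNA-seq was done on 6 mice with lung cancer. 3 of them received artemisinin, a sesquiterpene lactone drug from Artemisia annua (artemisinin replicates 1 to 3), and 3 are labelled as the model (model replicates 1 to 3). The labels name the sampled material only as lung cancer. The sources used here do not say how the cancer was produced, nor do they give the strain, age, dose, length of treatment or what the model mice received. The libraries held 25566173 to 34745497 counts. The numbered mice of the design text were counted as replicates, 1 for each library.

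In the mouse, heart muscle cells do not stop at the heart. A sleeve of striated, atrial-type muscle continues from the left atrium along the pulmonary veins into the lung, and it is a known source of ectopic beats in atrial fibrillation. These cells contract with cardiac actin and myosin, release calcium through the ryanodine receptor Ryr2, and can secrete the atrial hormone encoded by Nppa. Mouse atrium uses the light chains Myl7 and Myl4, while the working ventricle uses Myl2 and Myl3, and Myl3 is also made by slow skeletal fibres.

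The libraries were checked for lung RNA and for atrial and ventricular light chains. Alveolar type 2 cells make surfactant protein C, and its gene Sftpc stood between 2974 and 35144 normalised CPM, a count scaled to the size of its library. Myl2, the ventricular regulatory light chain, had 5, 4 and 0 counts in artemisinin replicates 1, 2 and 3 and 0, 1 and 0 in the model. Myl7, its atrial counterpart, had 2626, 136 and 916 counts with artemisinin and 210, 228 and 243 in the model. Myl3, of ventricle and slow skeletal fibres, had 126, 11312 and 13 counts with artemisinin and 29, 34 and 39 in the model, and so exceeded Myl7 in artemisinin replicate 2. Artemisinin replicate 2 stood apart by skeletal muscle RNA: Acta1, the skeletal actin gene, reached 2677 normalised CPM there and at most 0.924 in the other 5 libraries. Of 23 skeletal muscle markers only 10 passed the filter and 0 of these were called, against 4.47% of all genes tested. Acta1 and Myh8, near 0 outside artemisinin replicate 2, were among those not tested, so this count does not cover them. The summed level of the 23 markers was 22.6 to 8714 normalised CPM with artemisinin and 15.1 to 18.0 in the model. Myod1, Pvalb, Mybpc1 and Myh4 had 0 counts in every library but artemisinin replicate 2.

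The 10 genes did not move as a block. Actc1 and Sln rose with artemisinin and Myh7 fell, by edgeR (quasi-likelihood test, p-values adjusted by Benjamini-Hochberg over all 15242 genes tested, threshold 0.05). Thus 3 of 10 genes passed, against 4.47% of all genes tested, and the 3 artemisinin and 3 model values did not overlap for these same 3, against 33.6% of all genes. By direction, 2 of 10 rose, against 2.17% of all genes, and 1 of 10 fell, against 2.30%. The other 7 genes had positive fitted changes, but artemisinin replicate 2 lay within or below the model range for each of them. Artemisinin replicate 1 held the highest value of 8 of the 10 genes, and of 4506 of all 15242 genes tested, more than any other library. It lay above all 3 model libraries for 9 of the 10, against 41.8% of all genes tested, replicate 2 for 2 (34.2% of all) and replicate 3 for 8 (37.0% of all). The median log2 fold change was 2.46 for the 10 genes and 0.04 for all genes tested. For the 10 genes it was 0.73 without artemisinin replicate 1, 1.49 in limma-voom, 1.45 in the blocked fit and 1.61 to 1.65 in the limma fits to FPKM. In whole-tissue RNA a change in the number of muscle cells and a change in the RNA each cell holds cannot be told apart.

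**Figure D1:**
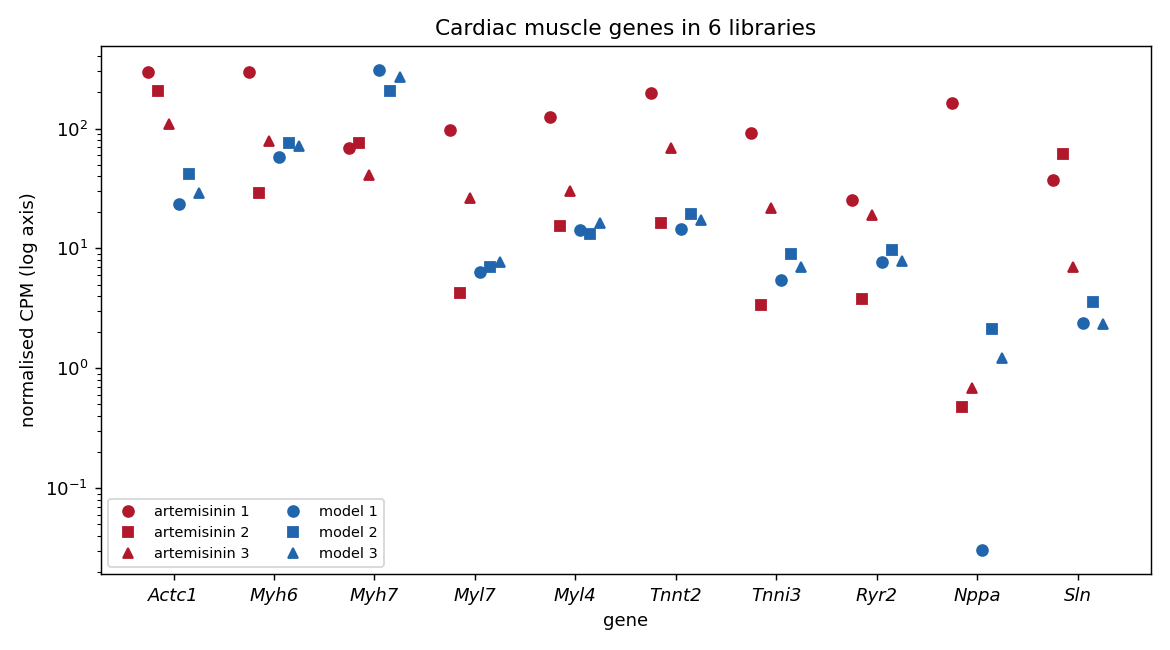
Normalised CPM of the 10 cardiac genes (x axis) on a log axis, 1 point per library; red marks the artemisinin and blue the model mice, and the shape gives the replicate number. For Myh6, Myl7, Tnni3 and Ryr2, artemisinin replicate 1 is the highest point and replicate 2 the lowest, while Myh7 has all 3 blue points above the red ones; the lowest Nppa point rests on 1 count.

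The genes lie on 8 chromosomes of GRCm38. Actc1 is on chromosome 2 (114047282 to 114053548, minus strand), and Myl7 on chromosome 11 (5896637 to 5898782, minus strand). Myh6 (chromosome 14, 54941921 to 54966927) and Myh7 (54970684 to 54994626) are neighbours on the minus strand and encode closely related heavy chains, so reads may be shared between them in the counting. The antisense RNA gene Mhrt and the antisense gene Gm31251 overlap exons of Myh7, and Gm13054 overlaps exons of Nppa. The kit keeps strand, but the strand setting of the counting is not in the sources used here, and sense and antisense reads of these genes cannot be told apart. Dnaaf3, a cilia assembly gene, overlaps an exon of Tnni3 on the same strand and had 605, 211 and 507 counts with artemisinin and 235, 283 and 161 in the model.

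Promoter windows are shown for the actin and the light chain with a match to the letters of a CArG box, and for the pair of heavy chains that went apart. Each runs from 250 bases before to 50 bases after a RefSeq start site on GRCm38.p6, 5′ to 3′ on the strand of the gene. Capitals mark a match to the CArG box, the serum response factor element of muscle promoters, or TATAAA, the letters of a TATA box.
Actc1, chr2:114052826-114053125, minus strand: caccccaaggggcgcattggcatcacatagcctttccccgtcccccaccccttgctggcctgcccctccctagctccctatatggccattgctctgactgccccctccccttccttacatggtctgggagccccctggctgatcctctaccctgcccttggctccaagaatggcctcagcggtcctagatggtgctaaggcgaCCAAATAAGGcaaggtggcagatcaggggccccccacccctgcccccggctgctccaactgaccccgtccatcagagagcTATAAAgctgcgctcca
Myl7, chr11:5898733-5899032, minus strand: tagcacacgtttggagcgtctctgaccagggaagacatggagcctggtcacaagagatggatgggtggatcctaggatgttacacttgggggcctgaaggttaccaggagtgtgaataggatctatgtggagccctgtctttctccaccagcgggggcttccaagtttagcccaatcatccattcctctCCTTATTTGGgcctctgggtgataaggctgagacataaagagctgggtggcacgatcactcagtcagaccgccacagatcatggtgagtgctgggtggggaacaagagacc
Myh6, chr14:54966558-54966857, minus strand: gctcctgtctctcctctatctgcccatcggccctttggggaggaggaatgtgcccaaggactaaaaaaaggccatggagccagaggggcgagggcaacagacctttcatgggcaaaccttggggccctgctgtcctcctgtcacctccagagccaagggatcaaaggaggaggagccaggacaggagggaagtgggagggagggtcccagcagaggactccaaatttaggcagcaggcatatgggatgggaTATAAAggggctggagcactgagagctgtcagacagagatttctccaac
Myh7, chr14:54994577-54994876, minus strand: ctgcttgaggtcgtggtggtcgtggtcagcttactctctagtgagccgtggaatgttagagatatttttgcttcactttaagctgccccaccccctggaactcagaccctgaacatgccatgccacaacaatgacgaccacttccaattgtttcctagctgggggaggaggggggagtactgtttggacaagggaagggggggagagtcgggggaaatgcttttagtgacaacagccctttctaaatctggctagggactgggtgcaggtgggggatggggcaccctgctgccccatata
RefSeq windows were found for 9 of the 10 genes, in 11 windows. The CArG box, searched by its usual consensus on both strands, stood in the windows of Actc1 (from position -47 relative to the start site) and Myl7 (from -61), 2 of 9 genes, and in 1.63% of all 32851 windows of this length. CATTCC, the letters of an M-CAT element, stood in the windows of Myh6, Myh7, Myl7 and Tnnt2, 4 of 9 genes against 14.7% of all windows. GATAA stood in those of Myl7, Nppa, Tnni3 and Tnnt2, 4 of 9 genes against 25.4%. TATAAA stood in those of Actc1 (from position 34, after the start site), Myh6 (from 2) and Nppa (from -9), 3 of 9 genes against 13.6%. The MEF2 consensus stood in none of the 11 windows and in 3.19% of all. No matches in these windows overlap each other, and the Myh7 window shown holds CATTCC alone. These matches describe letters only.

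The thin filament genes were measured next. Actc1 encodes cardiac alpha-actin, the actin of the heart sarcomere, which immature and damaged skeletal muscle and some smooth muscle also make. It stood at 296, 205 and 108 normalised CPM in artemisinin replicates 1, 2 and 3 and at 23.3, 41.6 and 28.9 in model replicates 1, 2 and 3. The lowest artemisinin value was thus above the highest model value. Actc1 rose 6.49-fold (log2 2.70 ± 0.40, SE; n = 3 per group; edgeR adjusted p = 0.0205). Without artemisinin replicate 2, the library with skeletal muscle RNA, its log2 fold change was 2.69 (edgeR adjusted p = 0.0204). The call was lost without model replicate 1, 2 or 3 (edgeR adjusted p = 0.11, 0.0507 and 0.0938) and in the blocked fit (0.0515), while the log2 fold change stayed between 2.33 and 2.97 in the 15 alternative settings run.

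Cardiac troponin T, encoded by Tnnt2, ties the troponin complex to tropomyosin. Tnnt2 stood at 198, 16.2 and 68.7 normalised CPM in artemisinin replicates 1, 2 and 3 and at 14.4, 19.5 and 17.1 in the model. Cardiac troponin I, encoded by Tnni3, holds the filament off at low calcium. Tnni3 stood at 92.7, 3.37 and 21.8 with artemisinin and at 5.40, 8.95 and 7.03 in the model. For both genes artemisinin replicates 1 and 3 were above all model libraries and replicate 2 was within or below their range. Neither passed the test (log2 2.47 ± 0.77 and 2.46 ± 0.99, SE; edgeR adjusted p = 0.117 and 0.186). Without artemisinin replicate 2 both were called (log2 2.97 and 3.001; edgeR adjusted p = 0.015 and 0.029), and without artemisinin replicate 1 neither was (log2 1.32 and 0.82; edgeR adjusted p = 0.24 and 0.553).

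Both atrial myosin light chain genes were highest in artemisinin replicate 1, then in replicate 3. Myl7, the atrial regulatory light chain, stood at 97.0, 4.28 and 26.2 normalised CPM in artemisinin replicates 1, 2 and 3 and at 6.38, 7.04 and 7.66 in the model. Myl4, the atrial essential light chain, stood at 125, 15.5 and 30.1 with artemisinin and at 14.3, 13.1 and 16.5 in the model. Artemisinin replicate 2 was below every model library for Myl7 and between them for Myl4. Neither gene passed the test (log2 2.60 ± 0.93 and 1.96 ± 0.70, SE; edgeR adjusted p = 0.153 and 0.149). Both were called without artemisinin replicate 2 (log2 3.13 and 2.40; edgeR adjusted p = 0.0194 and 0.0415), and without artemisinin replicate 1 they stood at log2 1.12 and 0.64 (edgeR adjusted p = 0.389 and 0.278).

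The heavy chain genes differed from each other. Myh6 encodes the fast alpha chain, the main heavy chain of adult mouse atrium and ventricle, and Myh7 the slow beta chain of fetal heart and slow skeletal fibres. Myh6 stood at 298, 28.9 and 78.1 normalised CPM in artemisinin replicates 1, 2 and 3 and at 57.7, 75.7 and 71.7 in the model, so the groups overlapped (log2 0.98 ± 0.72, SE; edgeR adjusted p = 0.427). Without artemisinin replicate 1 its log2 fold change was -0.35, so 1 library set its direction. Myh7 stood at 68.4, 76.4 and 41.2 with artemisinin and at 308, 204 and 267 in the model, without overlap. It fell 4.19-fold (log2 -2.07 ± 0.27, SE; n = 3 per group; edgeR adjusted p = 0.0164). This fall ranged from -2.25 to -1.89 in the 15 alternative settings, and the call was lost without model replicate 1 or 3 (edgeR adjusted p = 0.0781 and 0.074).

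Per length, Myh7 led Myh6 in the model and in artemisinin replicate 2 but not in the other artemisinin mice. The ratio of deposited FPKM (which divides a count by library total and gene length) of Myh6 to Myh7 was 4.39, 0.382 and 1.91 in artemisinin replicates 1, 2 and 3 and 0.189, 0.374 and 0.271 in the model. The artemisinin ratios lay above the model ratios, although replicate 2 did so narrowly (exact two-sided permutation test, p = 0.1, the smallest that 3 against 3 allows). Mean log2 ratios were 0.56 ± 1.79 and -1.90 ± 0.49 (SD, n = 3 per group).

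**Figure D2:**
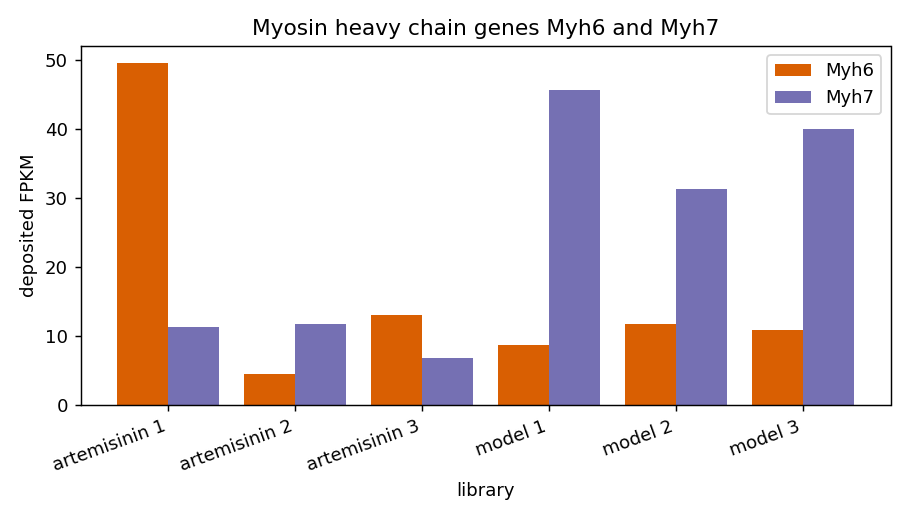
Deposited FPKM (y axis, from 0) of Myh6 (orange) and Myh7 (violet) in each library (x axis), 1 bar per gene and library, so the bars carry no error. Myh7 reaches 31.3 to 45.6 in the model and 6.79 to 11.8 with artemisinin, and Myh6 reaches 49.6 in artemisinin replicate 1.

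Myh7 took the same order over the 6 libraries as the surfactant genes. From the lowest to the highest, the order was artemisinin replicates 3, 1 and 2, then model replicates 2, 3 and 1, for Myh7, Sftpc and Sftpb. The order was compared after the values were seen. Other genes, Gata6 and Irx3 among them, took it too, and how many of all genes did was not counted. Sftpc stood at 9824, 11115 and 2974 normalised CPM in artemisinin replicates 1, 2 and 3 and at 35144, 21494 and 26910 in the model. Of 6 lung epithelium markers 2 fell and 0 rose, against 2.30% and 2.17% of all genes. Those that fell were Sftpb and Sftpa1 (log2 -2.39 and -2.51, edgeR adjusted p = 0.0245 and 0.0236). Both calls were lost without artemisinin replicate 1 or any model replicate. The other epithelial markers did not share this pattern: Scgb1a1, the club cell secretory gene, stood at 66749, 18383 and 24278 normalised CPM with artemisinin and at 7164, 17639 and 11731 in the model, and Foxj1 and Ager had log2 fold changes of 1.15 and -0.03 (edgeR adjusted p = 0.168, 0.157 and 0.967). The summed level of these markers was 30537 to 81661 normalised CPM with artemisinin and 58637 to 67528 in the model, with most of the highest sum from Scgb1a1, and none was at 0. The part of alveolar cells in the Myh7 result was not tested.

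Calcium handling was covered by Ryr2 and Sln. Ryr2 encodes the channel that releases calcium from the sarcoplasmic reticulum of heart cells. It stood at 25.5, 3.78 and 19.0 normalised CPM in artemisinin replicates 1, 2 and 3 and at 7.65, 9.79 and 7.91 in the model, so replicate 2 was the lowest of all libraries (log2 0.93 ± 0.59, SE; edgeR adjusted p = 0.361). Without artemisinin replicate 2 it was called (log2 1.39; edgeR adjusted p = 0.0213). Without artemisinin replicate 1 its log2 fold change was 0.43 and without replicate 3 it was 0.77, and neither was called (edgeR adjusted p = 0.729 and 0.499).

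Sln encodes sarcolipin, a small membrane protein that inhibits the calcium pump in atrium and in skeletal muscle. It stood at 37.2, 61.5 and 7.04 normalised CPM in artemisinin replicates 1, 2 and 3 and at 2.37, 3.58 and 2.36 in the model, without overlap. Sln rose 12.7-fold (log2 3.67 ± 0.73, SE; n = 3 per group; edgeR adjusted p = 0.0384). It was the only one of the 10 genes whose highest value lay in artemisinin replicate 2, the library with Acta1 at 2677 normalised CPM. Without that library Sln was still called, at a log2 fold change of 2.99 (edgeR adjusted p = 0.0415). The call was lost without artemisinin replicate 1 (edgeR adjusted p = 0.0884), without model replicate 1, 2 or 3 (0.192, 0.103 and 0.155), without a count filter (0.0584), in limma-voom (0.203), in the 3 limma fits to FPKM (0.0539 to 0.089) and in the blocked fit (0.0655).

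Nppa, which encodes atrial natriuretic peptide, was carried by 1 library. It had 4443, 15 and 24 counts in artemisinin replicates 1, 2 and 3 and 1, 69 and 39 in the model, or 164, 0.473 and 0.687 against 0.0304, 2.13 and 1.23 normalised CPM. Artemisinin replicate 1 thus stood far above the rest, and replicates 2 and 3 lay below 2 of the 3 model libraries. Nppa did not pass the test (log2 5.60 ± 2.37, SE; edgeR adjusted p = 0.206), and without artemisinin replicate 1 the log2 fold change was -0.96. Nppb, the gene of the related B-type peptide, had 156, 28 and 0 counts with artemisinin and 1, 19 and 6 in the model (edgeR adjusted p = 0.298).

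The number of the 10 genes called changed with the library left out. Without artemisinin replicate 2, 8 of 10 passed, against 8.96% of all genes in the same fit: Actc1, Myl7, Myl4, Tnnt2, Tnni3, Ryr2 and Sln rose and Myh7 fell. Without artemisinin replicate 1 only Actc1 and Myh7 passed (2.01% of all genes), and without replicate 3 Actc1, Sln and Myh7 did (3.19%). Without model replicate 1, 2 or 3 the count was 0, 1 and 0, where 0.110%, 0.760% and 0.148% of all genes passed. Each time 3 of the 10 had an unadjusted edgeR p under 0.05, and the share of all genes with such a p was not counted there. These fits also rest on fewer mice. DESeq2 called 5 of the 10 (15.0% of all genes), and edgeR with replicate number as a block called Myh7 alone (0.840%).

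Levels per length were compared by FPKM. In the model Myh7 was the highest of the 10 genes, at 39.0 ± 7.23 FPKM, followed by Actc1 at 20.7 ± 6.57 (SD, n = 3). Tnnt2, Myl7 and Myh6 came next, at 11.6 ± 1.95, 11.5 ± 1.13 and 10.4 ± 1.60 FPKM. Their means lay within the spread between mice, but Myh6 was below Tnnt2 and Myl7 in each model library. Tnni3 at 7.36 ± 1.97 and Sln at 5.15 ± 1.40 overlapped between mice, with Tnni3 the higher in each model library. Nppa and Ryr2 were lowest, at 1.28 ± 1.20 and 0.481 ± 0.0754. With artemisinin Actc1 was the highest in each library, at 214, 139 and 78.2 FPKM in replicates 1, 2 and 3. The order below it changed from mouse to mouse: Nppa came next in replicate 1 at 202 FPKM, Sln in replicate 2 at 117 and Tnnt2 in replicate 3 at 51.2. Myl4 was left out of this order, because its deposited FPKM imply a length of 16.3 kb, where the longest GENCODE transcript of Myl4 has 3.27 kb. The implied lengths of Tnnt2 and Sln, 1.42 and 0.52 kb, were shorter than their longest GENCODE transcripts of 3.33 and 1.32 kb, and those of the other 7 were within 4% of them.

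Of the 10 genes, 6 were closely correlated with each other, a group picked after their pattern was seen. Across the 6 libraries, Myh6, Myl7, Myl4, Tnnt2, Tnni3 and Ryr2 had pairwise Pearson correlations of log2(normalised CPM + 0.5) between 0.80 and 0.99 over 15 pairs. Nppa correlated with these 6 at 0.69 to 0.90. Myh7 correlated negatively with each of the other 9, from -0.86 to -0.21, and Actc1 with Sln at 0.94. These values describe 6 libraries of 2 groups, in which artemisinin replicate 1 lies far out, and all genes of a library share its depth and tissue. Relative to the model mean, replicate 1 held 13.8 times as much Myl7, 13.0 times as much Tnni3, 11.6 times as much Tnnt2 and 145 times as much Nppa. Replicate 3 held 3.73, 3.06, 4.04 and 0.608 times as much of the same genes, and replicate 2 held 0.610, 0.473, 0.952 and 0.418 times. For Myl4, Myh6 and Ryr2 replicate 1 held 8.56, 4.35 and 3.02 times the model mean.

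Genes with the most similar pattern to the mean of the 10 were found by correlation over the 6 libraries. They were Spa17, Mrps17, Tmem222, Prodh, Taz, Leng8, Trim24, Trim26, Lypla2 and Uimc1, with Pearson r from 0.992 to 0.998, and none belongs to a muscle list used here. Spa17, a sperm and cilia protein gene, stood at 33.3, 7.56 and 11.5 normalised CPM with artemisinin and at 6.22, 8.37 and 6.78 in the model. With 6 points many genes reach such values. Taken gene by gene, a comparison added after the values were seen, muscle genes appeared for some of the 10 genes only. The 10 nearest to Sln included Casq2, Myoz2 and Hspb7, those to Tnni3 included Myl7, Mybphl and Kcnj3, and those to Myl4 included Pln and Mybpc3. The 10 nearest to Actc1 were Kcnd3, Ryr3, Tagln, Cnn1, Sbk3, Itgb4, S100a6, Smtn, Casp12 and Fxyd1, from the nearest on. Among these, Tagln, Cnn1 and Smtn are on the smooth muscle list and none is on a cardiac list. The lists do not name every muscle gene. The 10 nearest to Myh7 held no gene of any muscle list, and the same was true of those nearest to Myh6, Myl7, Tnnt2, Ryr2 and Nppa.

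Most other sarcomere genes of the heart peaked in the library with skeletal muscle RNA. Of 22 such genes 21 were tested, 4 rose (Des, Tcap, Myoz2 and Synpo2l) and 0 fell, against 2.17% and 2.30% of all genes. The median log2 fold change was 3.90, against 0.04 for all genes. Artemisinin replicate 2 held the highest value of 18 of the 21 and replicate 1 that of 3, where over all 15242 genes tested they held 2261 and 4506. Des, the gene of the intermediate filament desmin, stood at 343, 644 and 165 normalised CPM with artemisinin and at 47.6, 52.6 and 61.6 in the model (log2 2.83 ± 0.47, SE; edgeR adjusted p = 0.0252). Without artemisinin replicate 2 its log2 fold change was 2.23. Tcap and Myoz2, Z-disc genes of heart and skeletal muscle, rose with log2 fold changes of 3.72 and 3.83, which were 2.64 and 3.02 without replicate 2, and Synpo2l went from 4.14 to 2.93. The number of these genes called was 0, 11 and 11 without artemisinin replicates 1, 2 and 3, against 2.01%, 8.96% and 3.19% of all genes.

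Mybpc3, Mybphl and Tnnc1 had their highest value in artemisinin replicate 1, as Myl7 did. Mybpc3, cardiac myosin binding protein C, stood at 27.2, 1.23 and 4.55 normalised CPM with artemisinin and at 1.31, 1.27 and 1.26 in the model (edgeR adjusted p = 0.127). Mybphl, a related gene of the atrium, stood at 19.8, 0.788 and 3.69 and at 1.09, 1.73 and 1.61 (edgeR adjusted p = 0.194). Tnnc1, the troponin C of heart and slow fibres, stood at 31.0, 2.52 and 4.52 and at 2.09, 2.04 and 1.89, without overlap but above the threshold (edgeR adjusted p = 0.135). Ttn, the giant spring protein titin of all striated muscle, stood at 66.1, 312 and 10.8 and at 4.01, 8.68 and 6.18, and Csrp3, a Z-disc stretch sensor, at 31.6, 145 and 7.41 and at 3.25, 3.27 and 2.62 (edgeR adjusted p = 0.0857 and 0.0594). Myl3 stood at 356 normalised CPM in artemisinin replicate 2 and at most 4.66 elsewhere, with 126 counts in replicate 1 beside 2626 of Myl7. In artemisinin replicate 1, the mouse highest in the cardiac genes, the summed level of the skeletal markers was 52.7 normalised CPM, against 15.1 to 18.0 in the model. The sum of the 10 cardiac genes was 1401 there, against 385.3 to 439.9 in the model, where Myh7 made up 52.9% to 70.1% of it. Without Myh7 the sum was 1333, 339 and 360 in artemisinin replicates 1, 2 and 3 and 132 to 181 in the model. In replicate 1, 7 of the 10 skeletal markers tested lay above all model libraries, against 41.8% of all genes tested. Tnnt3 was among them, at 20.8 against 0.911 to 1.82 normalised CPM, while Myod1, Pvalb, Mybpc1 and Myh4 were at 0. The part of skeletal muscle RNA in the levels of that library was not tested.

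**Figure D3:**
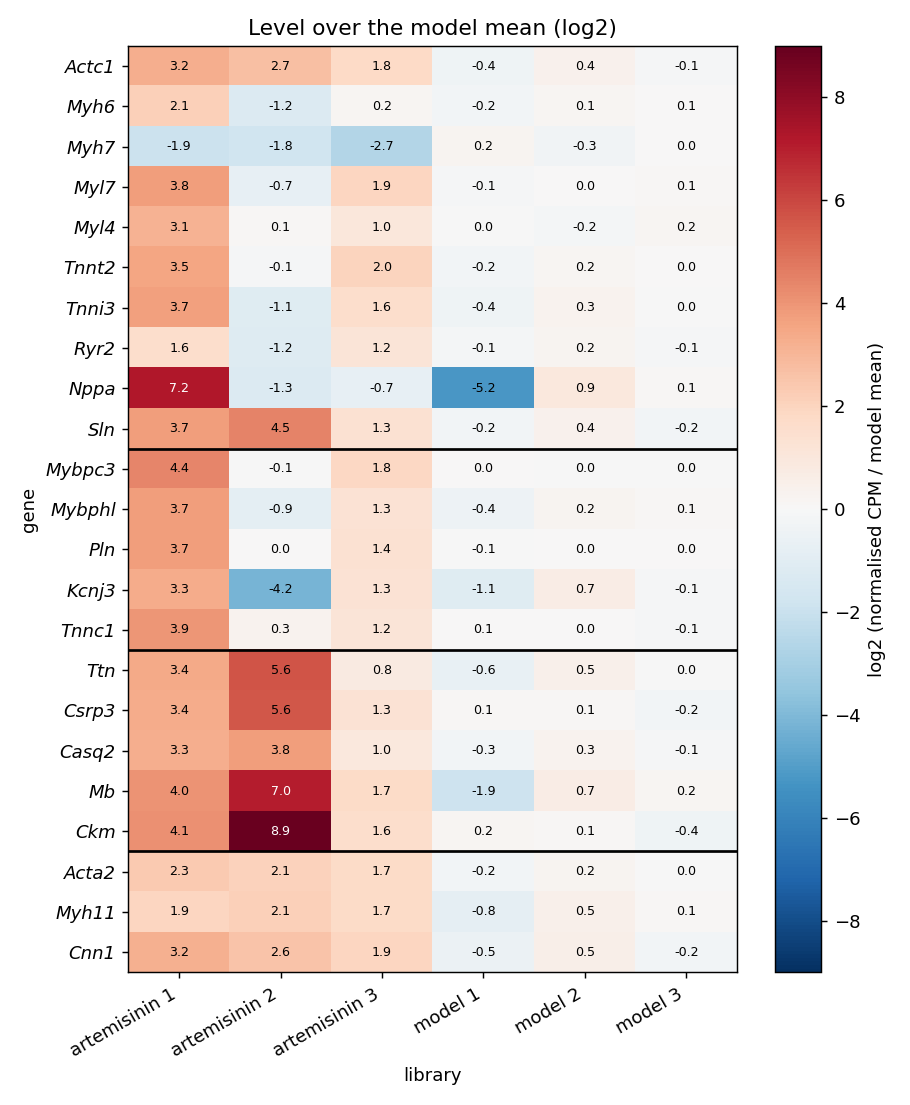
Level of each gene (rows) over its mean in the 3 model libraries, as log2 of normalised CPM, in each library (columns); lines separate the 10 cardiac genes, further heart genes, genes of heart and skeletal muscle, and smooth muscle genes, rows below the first line being picked from the lists for display after their values were seen. Myl7 and Mybpc3 are high in artemisinin replicates 1 and 3 only, Ttn and Ckm peak in replicate 2, and Acta2 is high in all 3.

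Of 14 further calcium genes tested, 2 rose, Jph2 and Casq2, and 0 fell, against 2.17% and 2.30% of all genes. Their median log2 fold change was 0.53. Jph2 encodes junctophilin, which holds the calcium store at the cell membrane, and stood at 49.5, 77.5 and 42.0 normalised CPM with artemisinin and at 14.1, 20.1 and 21.3 in the model (log2 1.61 ± 0.27, SE; edgeR adjusted p = 0.0269). Casq2, the cardiac calsequestrin gene, rose 8.48-fold but lost its call without artemisinin replicate 1 or 2, and Jph2 without replicate 1. Pln, which encodes the pump inhibitor phospholamban, stood at 69.7, 5.32 and 13.7 and at 5.04, 5.28 and 5.36 (edgeR adjusted p = 0.135). Atp2a2, the pump gene of heart and many other cells, stood at 394, 323 and 346 and at 311, 336 and 348 (log2 0.10 ± 0.16, SE; edgeR adjusted p = 0.722).

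Transcription factors of heart and pulmonary vein gave 1 rise and 2 falls among 17 tested of 19 in the table. Over all genes tested 2.17% rose and 2.30% fell, and the median of these factors was 0.28. Prrx1, a mesenchymal homeobox gene, rose 2.15-fold, and Gata6 and Irx3, which lung epithelium also expresses, fell with log2 fold changes of -0.88 and -0.99 (edgeR adjusted p = 0.0384, 0.0378 and 0.0472). All 3 calls were lost without artemisinin replicate 1 or 3. Nkx2-5, the core cardiac factor, had 46, 0 and 0 counts in artemisinin replicates 1, 2 and 3 and 1, 2 and 4 in the model and was not tested. Gata4, Tbx5 and Nr2f2, a vein and atrial factor, did not pass (log2 0.06, 0.24 and 0.68; edgeR adjusted p = 0.965, 0.558 and 0.0768), and Gata4 and Tbx5 changed sign with libraries left out.

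Among 20 channel and junction genes Bves rose and Kcnq1 fell, with a median of 0.61, where 2.17% of all genes rose and 2.30% fell. Bves, a muscle membrane protein gene, stood at 4.40, 8.16 and 1.95 normalised CPM with artemisinin and at 0.547, 0.371 and 0.693 in the model (edgeR adjusted p = 0.0378), and had a log2 fold change of 3.16, or 2.55 without artemisinin replicate 2 and no call without replicate 1. Kcnq1, a potassium channel gene of heart and epithelia, stood at 13.9, 16.8 and 19.8 with artemisinin and at 37.5, 36.8 and 38.4 in the model (edgeR adjusted p = 0.0194). Kcnj3, the atrial acetylcholine-gated channel gene, had 159, 1 and 51 counts and 9, 30 and 17 (edgeR adjusted p = 0.353). The connexin genes Gja5 and Gja1 had log2 fold changes of 0.24 and -0.58, and the pacemaker channel gene Hcn4 stood at no more than 0.567 normalised CPM (edgeR adjusted p = 0.404, 0.506 and 0.469).

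Of 10 natriuretic, stretch and stress genes tested, 2 rose, Hspb7 and Smpx, against 2.17% of all genes. The median of the list was 1.44. Hspb7, a small heat shock protein gene of heart, stood at 60.3, 114 and 20.7 normalised CPM with artemisinin and at 6.65, 7.72 and 5.86 in the model (edgeR adjusted p = 0.0285), and Smpx rose 67.1-fold. Their log2 fold changes went from 3.26 and 6.07 to 2.58 and 4.52 without replicate 2, and neither was called without replicate 1. Of 13 muscle energy genes 1 rose, Cox8b, against 2.17% of all genes, with a median of 3.04. Cox8b had a log2 fold change of 3.47 (edgeR adjusted p = 0.0384), and its call was lost without artemisinin replicate 1. Mb, the myoglobin gene, stood at 98.2, 792 and 19.7 and at 1.64, 9.51 and 6.93 (edgeR adjusted p = 0.0841), and Ckm at 33.2, 895 and 5.78 and at 2.19, 2.04 and 1.45 (edgeR adjusted p = 0.0868). The number of energy genes called was 0, 6 and 8 without artemisinin replicates 1, 2 and 3, against 2.01%, 8.96% and 3.19% of all genes. In the cardiac and energy lists beside the 10 genes, all 14 calls named here were lost without any single model replicate.

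**Figure D4:**
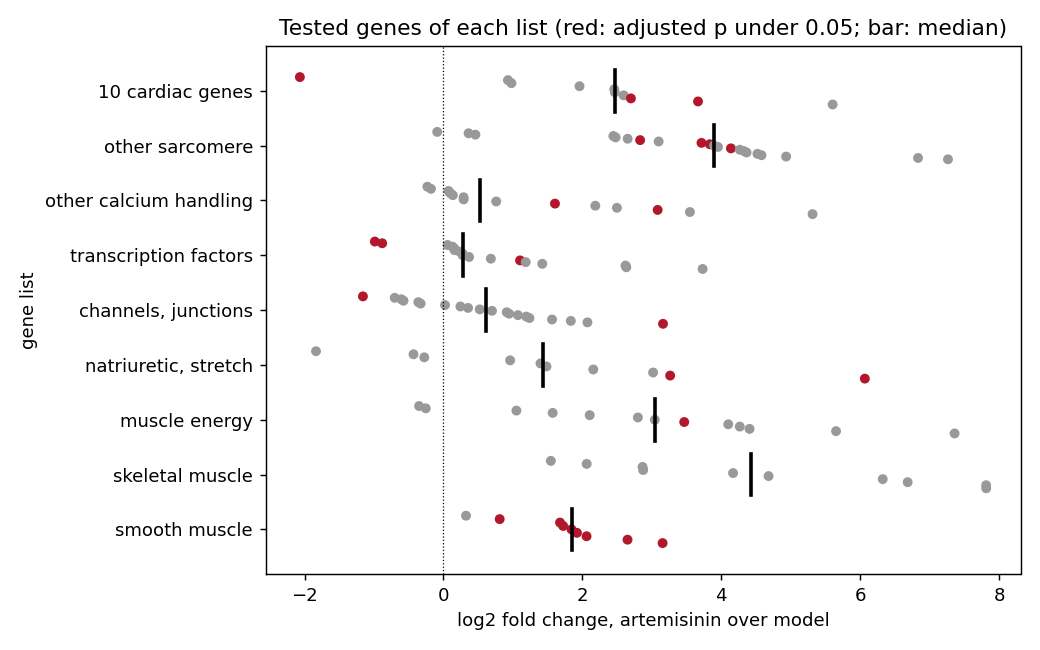
Log2 fold change, artemisinin over model (x axis), of each tested gene in 9 lists (y axis); red points passed an adjusted p of 0.05 and the bar is the median. The 10 cardiac genes have a median of 2.46 with Myh7 alone below 0, but without artemisinin replicate 1 the median is 0.73 and Myh6 and Nppa are also below 0, and the smooth muscle list has the most red points, 8 of 9.

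Of 9 smooth muscle contractile genes tested 8 rose, against 2.17% of all genes, with a median of 1.84. In all 9 the 3 artemisinin values lay above the model values, where 16.3% of all genes did. Acta2, smooth muscle actin, stood at 416, 343 and 264 normalised CPM and at 70.3, 94.8 and 80.3 (edgeR adjusted p = 0.00984), and Myh11, its myosin, at 274, 318 and 242 and at 41.6, 101 and 77.6 (edgeR adjusted p = 0.0256). Actg2, Tagln, Cnn1 and Lmod1 rose 8.91-fold, 3.59-fold, 6.28-fold and 3.20-fold. Without artemisinin replicate 1, 3 of the 9 were called, against 2.01% of all genes. Of the 6 named here none passed without model replicate 1 or 3 (edgeR adjusted p = 0.0654 to 0.136). Among the cardiac genes chosen at the start, Myh6, Myl7, Myl4, Tnnt2, Tnni3, Ryr2 and Nppa overlapped between the groups. Of the 21 other cardiac sarcomere genes tested, 16 had all artemisinin values above the model values and 0 had all below, against 16.3% and 17.3% of all genes. Of 6 endothelial and vein markers 0 were called, with a median of 0.14 and 2 at an unadjusted edgeR p under 0.05. Of the 2 ventricular genes tested, Myl3 and Nppb, 0 were called and 1 had such a p. Of all 15242 genes tested, 3758 had an unadjusted edgeR p under 0.05 in the fit to all 6 libraries. The difference between the cardiac and the smooth muscle genes was not tested.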

How the data were processed

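Per the labels' protocols, a mirVana kit isolated the RNA and a stranded TruSeq mRNA kit gave the libraries. The submitters' processing notes name GRCm38 (mm10) as build. For the aligner, counter and annotation nothing is given in the sources used here. The authors deposited raw counts per gene and FPKM for 18238 genes. The deposited FPKM equal the counts over library total and a length per gene (largest relative gap 5.3e-07 over 15462 genes), so they are no independent evidence. The count test was edgeR 4.0.16 under R 4.3.3 (filterByExpr, TMM factors, robust glmQLFit, glmQLFTest, Benjamini-Hochberg); each SE is the log2 change over the root of F. Normalised CPM divide counts by the TMM-scaled total. Alternatives used DESeq2 1.42.0, limma 3.58.1 (voom, and trend on log2(FPKM + 0.1) or log2(FPKM + 1), a scale that understates changes of low genes), other filters, library totals, a replicate block, and each library left out. A gene at 3 counts stood at 0.117 CPM in the smallest library.

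The 10 genes and 11 further lists (161 entries, 157 found) were chosen with earlier results of these data known. Named are all 10 genes, called list members up to 6 per list, a set list of key heart, vein and muscle genes, and the 10 genes nearest in pattern. One gene of the set list is not reported here. The fits were tested on simulated data, where a larger share of the calls was false with DESeq2 than with edgeR. The simulated counts were drawn with the spread that edgeR had fitted, so they cannot show which calls in these data are false. No batch is given in the labels.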

Additional observations from a re-analysis of the deposited data

How the results depend on the processing

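The 3 cardiac calls became 5 with DESeq2 (Actc1, Myh7, Myl4, Sln and Tnnt2, where 15.0% of all genes were called) and 1 with the replicate block (0.840%), and ranged from 0 to 8 with 1 library left out. Over all genes, 331 were higher and 351 lower. DESeq2 gave 1234 and 1052, the replicate block 65 and 63, limma on unfiltered FPKM 198 lower, and leaving out 1 library 6 to 670 higher and 11 to 713 lower. With library totals the split was 464 to 319, and the all-gene median (log2) went from 0.04 to 0.15. No direction of the 10 genes turned with that scaling. Deviations of same-numbered mice had correlations of 0.0025, -0.14 and 0.042, and those of the other pairs ran from -0.12 to 0.11. Values this few cannot exclude a pairing by replicate number. With 1 library left out, Myh6 ran from -0.35 to 1.45, Nppa from -0.96 to 6.43, Gata4 from -0.36 to 0.45 and Tbx5 from -0.058 to 0.41 on the log2 scale. Myh6 and Nppa turned without artemisinin replicate 1, Gata4 without artemisinin replicate 1 or 2 (-0.29 and -0.03) or model replicate 3, and Tbx5 without artemisinin replicate 3. All these rest on genes that were not called, and the cause was not tested. DESeq2 gave no adjusted p for Nppa. Calls on 3 against 3 mice rest on a spread that edgeR shares across genes, and genes near 3 counts limit what could be seen.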
